A study of Mus musculus with 16 samples.

Results

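Potassium channel genes were followed in olfactory bulb microglia of WT mice and of APP-NL-G-F knock-in mice, called KI below. They were chosen by name: every gene of the count table whose symbol begins with Kcn, leaving out pseudogenes, antisense transcripts and clone names, that reached 5 counts or more in 8 or more of the 16 libraries. Of 95 genes with such a name, 68 passed this count filter and were tested, among 18227 tested and 57010 listed genes in all, and 27 did not pass. The symbols cover pore-forming subunits, subunits that only modify a pore, soluble and membrane partners, and 1 noncoding RNA, Kcnq1ot1, which lies at a potassium channel locus and is no channel.

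The WT animals were C57BL/6J mice with the unmodified mouse App gene. KI animals carry App with the 3 familial changes named in its label, NL (Swedish), G (Arctic) and F (Iberian), on the C57BL/6J background, so the altered protein is made wherever App is normally expressed, in neurons as well as in glia. All mice were 2 months old, and 4 libraries came from each sex of each genotype, which gives 8 WT and 8 KI libraries. Cells were enriched with magnetic beads against CD11b, a surface protein of microglia and other myeloid cells, and run over a second column. No source used here states how many animals went into a library, and a reporting form of the study mentions technical replicates for RNA sequencing without tying them to libraries. Some libraries may thus share animals, and the p-values measure the spread between these libraries.

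Between 9052932 and 18117286 counts were assigned per library. App itself stood at 370.5 to 462.3 CPM (counts relative to the library's size and adjusted by the trimmed mean of M-values, TMM) over all libraries; a knock-in changes the sequence and not the number of gene copies, so its level does not check the labels. The 12 microglia marker genes, among them P2ry12, Tmem119 and Cx3cr1, summed to 21992 to 26048 CPM in WT and 21939 to 25515 CPM in KI libraries. The 14 neuron marker genes were also present, with none at 0 in every library, and summed to 400.1 to 546.5 CPM (median 493.5) in WT and 489.3 to 719.4 CPM (median 623.9) in KI libraries, with 7 of the 8 KI libraries above the highest WT library. In such bulk samples fewer cells of a type and less RNA per cell cannot be told apart.

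Potassium channels let potassium leave the cell and so hold its membrane potential negative. Microglia rely on a small set of them: Kcnk13, a tandem pore domain channel open at rest, is known to set their membrane potential and to support their surveillance of tissue, Kcnk6 is a related channel known for potassium efflux ahead of inflammasome activation in macrophages, Kcnj2 is an inward rectifier, and Kcna3 and Kcnn4 are a voltage-gated and a calcium-activated channel linked to activated states. Neurons use a far larger set, with voltage-gated channels that repolarise the action potential, M-type channels of the Kcnq family that damp repetitive firing, and inward rectifiers opened by G proteins.

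What joins the pore-forming subunits is the selectivity filter, the short stretch that lets potassium through in preference to sodium. It was searched for in the coding sequence of 66 members as 5 codons for threonine or serine, then valine, isoleucine or leucine, then glycine, then tyrosine, phenylalanine or leucine, then glycine. All 58 pore-forming members held it, and none of the 8 auxiliary subunits did, against 291 of 21757 protein-coding genes (1.34%). In 6 of the 8 tandem pore domain genes it was found at 2 places, since such a subunit holds a pair of pore domains. The filters of the channels that the results below turn on are shown with 6 bases on either side, read from GRCm39 along the gencode vM39 coding exons in the direction of transcription; the capitals mark the 15 filter bases. The first 3 belong to genes of high level in WT libraries, the second pore domain being shown for Kcnk6. The other 7 belong to low-level genes that were higher in KI libraries.
Kcnk6, second pore domain (chr7:28924955-28924981, minus strand): ctgtccACCATTGGCCTAGGGgactac
Kcnj10 (chr1:172196863-172196889, plus strand): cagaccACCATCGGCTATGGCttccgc
Kcnj2 (chr11:110963027-110963053, plus strand): cagacaACCATTGGCTATGGTttcagg
Kcna1 (chr6:126619185-126619211, minus strand): atgaccACTGTGGGATACGGTgacatg
Kcnb2 (chr1:15780264-15780290, plus strand): atgaccACTGTGGGCTACGGTgacatt
Kcnf1 (chr12:17225056-17225082, minus strand): atgaccACAGTGGGCTATGGTgacatc
Kcnh7 (chr2:62607681-62607707, minus strand): ctaaccAGTGTAGGATTTGGAaatgtg
Kcnq3 (chr15:65895574-65895600, minus strand): ctggccACCATTGGTTATGGAgacaag
Kcnj6 (chr16:94633630-94633656, minus strand): gaaaccACCATCGGTTATGGCtaccgg
Kcnk9, second pore domain (chr15:72384562-72384588, minus strand): ttgactACTATAGGGTTCGGCgatttt

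Compared with the filter of Kcna1, 14 of the 15 bases were the same in Kcnb2, 12 in Kcnf1, 10 in Kcnh7, Kcnj2 and the second pore of Kcnk9, 9 in Kcnj10, Kcnj6 and Kcnq3, and 7 in the second pore of Kcnk6. Of those shown, the voltage-gated Kcnb2 was the nearest to Kcna1, followed by the silent subunit Kcnf1, and the second pore of Kcnk6 the farthest. The first pores of Kcnk6 and Kcnk9, which are not shown, each had 11 bases the same, so this order depends on the pore.

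Levels were compared between channel genes as RPKM, the TMM-scaled CPM per kilobase of exon, averaged over the 8 WT libraries. A value of 5 RPKM was used to separate the channels of higher level from the rest, since a channel of microglia itself should stand high in microglial RNA; the level alone does not say which cell an RNA came from. Of the 67 members with an exon length, 5 lay at or above it and 62 below, and Kcne1l had no length. Kcnk6 stood highest at 39.2 RPKM, followed by Kcnj10 at 9.87, Kcnk13 at 6.84, Kcnj2 at 6.64 and Kcnd1, a voltage-gated channel of the A type, at 6.33 RPKM. Just below the value came Kcnip3, a calcium sensor that binds channels of the Kcnd family, at 4.93 RPKM. The list of 6 known microglial channels was split by it: Kcnk6, Kcnk13 and Kcnj2 were above, while Kcna3 reached 2.77, Kcnn4 0.27 and Kcna5 0.26 RPKM. Kcnj10 is best known from astrocytes, whose 10 marker genes were all detected.

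**Figure D1:**
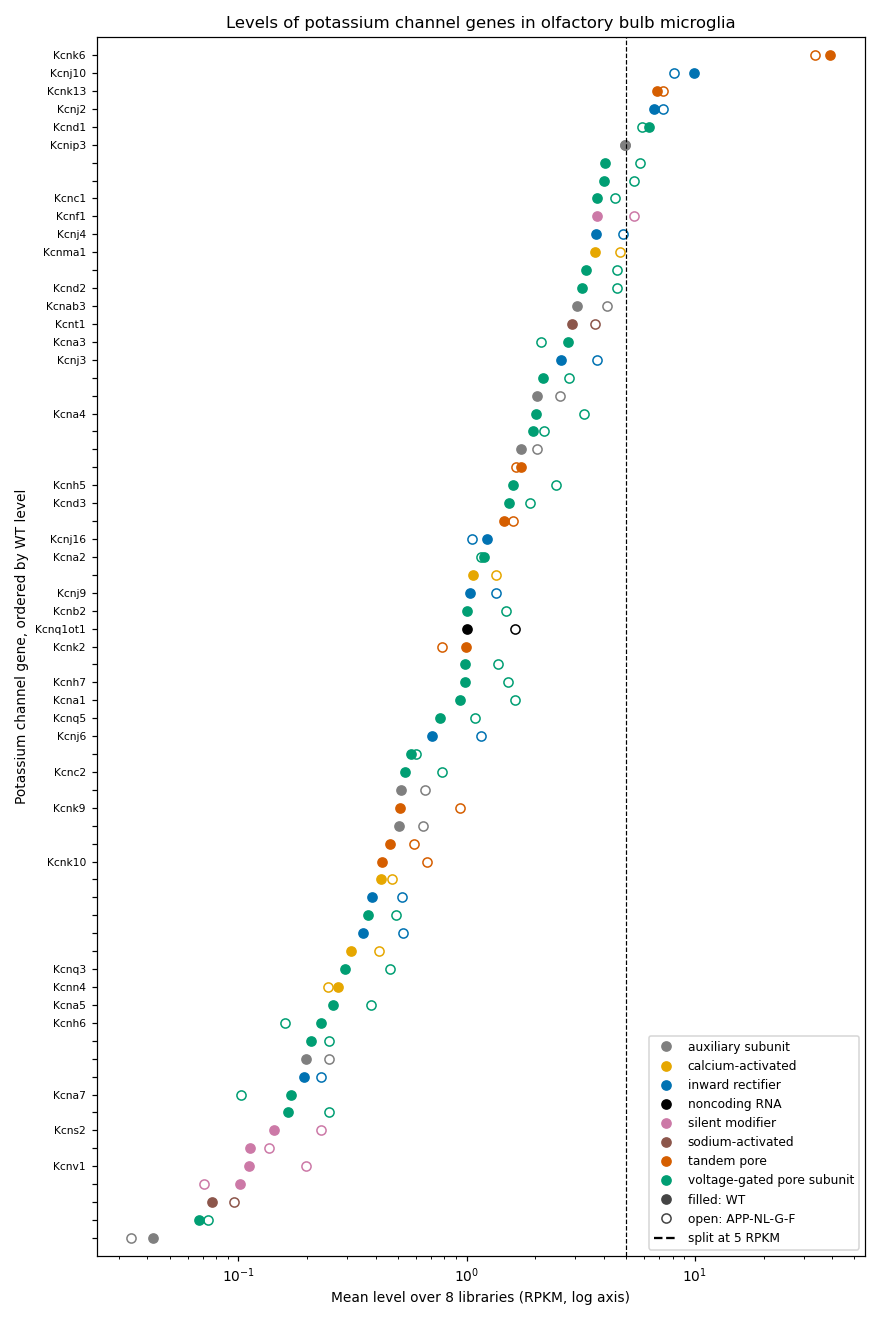
Mean level of the 67 channel genes with an exon length (x axis, RPKM on a log axis), ordered by their WT level (y axis, with names only for genes described in the text), with filled points for the 8 WT and open points for the 8 KI libraries, colours for the channel class and a dashed line at 5 RPKM. Kcnk6 stands alone at 39.2 RPKM in WT, 4 further genes lie between 6.33 and 9.87 RPKM, and most open points below the line lie to the right of the filled ones.

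The question of the genotype comparison was which channel genes differed between KI and WT microglia. None of the 5 genes at or above 5 RPKM was called, and 17 of the 62 below it were, all of them higher in KI libraries. The WT libraries set this split and also enter the fold change, so level and fold change are not independent. A split at 5 RPKM by the mean over all 16 libraries put the same 5 members above and the other 62 below. A gene was called where its false discovery rate (FDR) lay under 0.1 and its log2 fold change was past 0.5 in either direction, from edgeR's quasi-likelihood test with sex as a covariate, adjusted over all tested genes. These 17 are 25.0% of the 68 tested members, where 4.33% of all tested genes were called higher, and no member was called lower by edgeR, where 4.3% of all tested genes were. With a negative fold change, 4 members had an unadjusted p below 0.05 by edgeR, where 11.8% of all tested genes did, 4 by limma voom, which called 1 of them lower, Kcna7, and 3 by DESeq2, which called 0. By the FDR alone 23 members were higher and 0 lower, with 6.95% of all tested genes higher. Among protein-coding genes below 5 RPKM, which share the low level of these members, 3.79% were called higher, against 16 of 61 protein-coding members. Of genes at or above that level 4.61% were called in either direction, so 0 calls among 5 members lies near that share.

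Of the 62 low-level members 52 had a fold change above 0, with a median log2 fold change of 0.38, while the median of all tested protein-coding genes below 5 RPKM was 0.03. The median of the 5 high-level members was -0.10, and that of all tested genes at or above the split was -0.04. That value depends on where the levels are split: at 2 RPKM, 21 members lay above with a median of 0.36, and at 10 RPKM 1 member did, Kcnk6. The 62 low-level members summed to 566.2 to 942.8 CPM (median 757.5) in WT and 681.6 to 1237 CPM (median 1023) in KI libraries, of which 5 exceeded every WT library. The 5 high-level members summed to 298.5 to 353.8 CPM (median 320.7) in WT and 264.6 to 333.7 CPM (median 286.0) in KI libraries. The count of calls rested partly on single libraries: it was 10 without WT male replicate 2 or KI female replicate 3 and 11 without WT female replicate 1, always with every call higher. Of the 17 called members, 10 were called in all 16 settings that left out 1 library and 7 lost the call in some. Kcnj3 was called in 14 of them, Kcnk10 in 12, and Kcnd2 and Kcnq5 in 11 each. These 4 lost it without WT male replicate 2, at 0.47 to 0.60, and without KI female replicate 3, at 0.40 to 0.57. Without WT female replicate 1 the call was lost for Kcnd2, Kcnk10 and Kcnq5, without WT female replicate 3 for Kcnd2 and Kcnq5, without KI male replicate 2 for Kcnd2 and Kcnk10, and without KI male replicate 1 for Kcnq5. Kcnd2 was also not called by limma voom, at 0.49. All 17 called members had at least 5 counts in each of the 16 libraries, so none entered the test through 1 genotype alone.

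**Figure D2:**
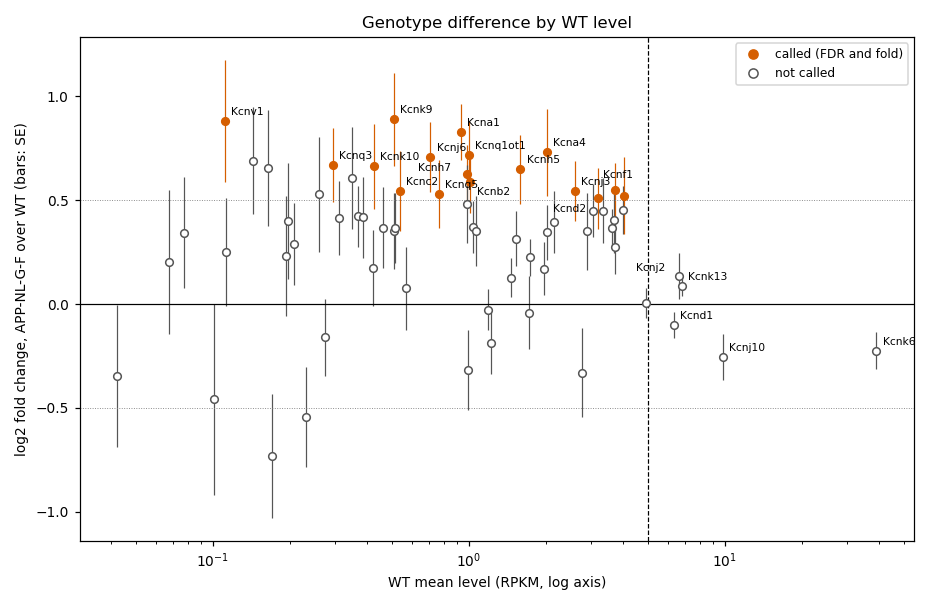
Log2 fold change of KI over WT (y axis, bars are standard errors, n = 8 libraries each) against the WT level (x axis, RPKM on a log axis) for the 67 channel genes with a length, with filled orange points for called genes, dotted lines at 0.5 and -0.5, and a dashed line at 5 RPKM. All 17 called genes lie left of the dashed line and above 0.5, and the 5 genes to its right lie between -0.25 and 0.13.

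Among the high-level channels, Kcnk6 (chromosome 7, 28921346 to 28932035) ran from 141.2 to 204.5 CPM in WT, with a median of 162.6, and from 115.7 to 171.6 CPM in KI libraries, with a median of 138.5. The ranges overlapped, and only 2 KI libraries lay above the WT median. Its log2 fold change was -0.22 ± 0.09 (SE, edgeR quasi-likelihood FDR = 0.12), which did not pass. Kcnk13 (chromosome 12, 99924948 to 100028942), the resting channel of microglia, had the smallest standard error of the members. It ran from 31.2 to 38.0 CPM (median 33.9) in WT and from 33.7 to 38.3 CPM (median 35.3) in KI libraries, and 7 of the 8 KI libraries lay above the WT median. The difference of 0.09 ± 0.05 on the log2 scale had an FDR of 0.284 (edgeR).

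Kcnj2, the inward rectifier that passes current near rest, ran from 23.8 to 53.8 CPM in WT and from 34.0 to 46.6 CPM in KI libraries, so the WT libraries enclosed the others. The WT maximum came from WT male replicate 3, with the other WT males at 35.9 to 37.3 CPM. The log2 fold change of Kcnj2 was 0.13 ± 0.11 (edgeR FDR = 0.501). Within females it was 0.39 (edgeR FDR = 0.0986), below the fold threshold, and within males -0.12. The difference between the sexes had an unadjusted p of 0.0148 (edgeR). Kcnd1 lay at 29.8 to 37.0 CPM in WT and 27.1 to 36.5 CPM in KI libraries, with a log2 fold change of -0.10 ± 0.06 (edgeR FDR = 0.341). Over both sexes, none of these 4 genes was called when the normalization, the test or the covariates were changed or when any 1 library was left out. The 3 other known microglial channels had lower levels and wider errors. Kcna3 had a log2 fold change of -0.33 ± 0.21, Kcnn4 of -0.16 ± 0.19 and Kcna5 of 0.53 ± 0.28, and none passed.

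**Figure D3:**
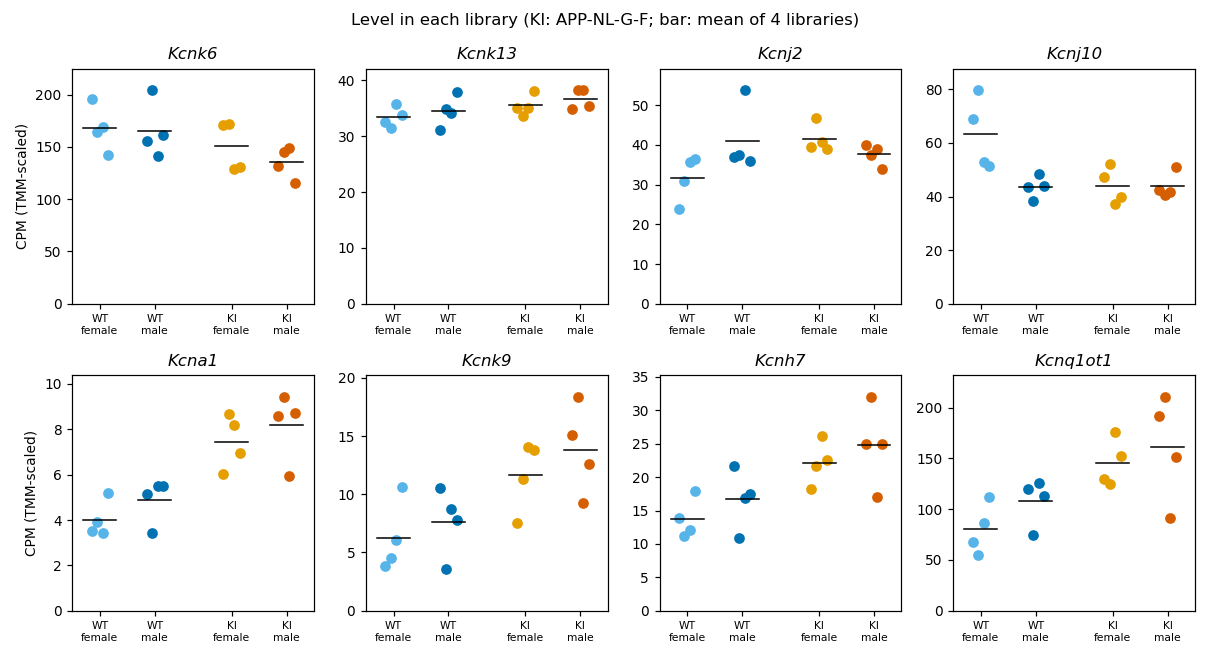
TMM-scaled CPM of 8 channel locus genes (y axes start at 0) in each of the 16 libraries, by genotype and sex on the x axis (KI is APP-NL-G-F), with bars at the mean of 4 libraries. The upper row holds 4 genes above 5 RPKM, whose genotypes overlap, and the lower row 4 called genes, of which Kcna1 has all 8 KI libraries above the highest WT library.

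The voltage-gated pore subunits, which open on depolarisation, were the largest class. Of 28 tested, 10 were called higher, where 4.33% of all tested genes were, and 23 had a fold change above 0, with a median of 0.45. Kcna1 (chromosome 6, 126617360 to 126623347), an axonal channel that limits excitability, ran from 3.43 to 5.49 CPM (median 4.54) in WT and from 5.96 to 9.43 CPM (median 8.39) in KI libraries. It was the only member whose genotypes did not overlap, a pattern that 0.137% of all tested genes showed in that direction. Its log2 fold change was 0.83 ± 0.13 with an FDR of 0.000977 (edgeR), the smallest of the members, and it was called with each library left out. Its highest count was 124, so the level itself was low.

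Kcna4, an A-type channel of axons, ran from 4.75 to 14.9 CPM (median 10.7) in WT and from 10.2 to 22.9 CPM (median 17.4) in KI libraries, with a log2 fold change of 0.73 ± 0.21. Kcnd2, the A-type channel of dendrites, ran from 13.2 to 23.98 CPM (median 18.4) in WT and from 16.7 to 37.2 CPM (median 25.3) in KI libraries, with a log2 fold change of 0.51 ± 0.15. Its relative Kcnd1, given above, stood at -0.10. The delayed rectifier Kcnb2 rose by 0.59 ± 0.15 on the log2 scale.

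Of the M-type channels, Kcnq3 and Kcnq5 rose by 0.67 ± 0.18 and 0.53 ± 0.16 on the log2 scale. The ether-a-go-go family contributed Kcnh7 and Kcnh5, which rose by 0.63 ± 0.14 and 0.65 ± 0.16, and Kcnc2, a fast channel of interneurons, rose by 0.54 ± 0.19 and was called in 6 of the 16 settings that left out 1 library. Kcnc2 lost the call, at 0.44 to 0.54, without WT female replicate 1, 2 or 3, WT male replicate 2 or 4, KI female replicate 1, 3 or 4, or KI male replicate 1 or 2. Kcnh7 ran from 10.9 to 21.7 CPM in WT and from 17.0 to 32.0 CPM in KI libraries, and all 8 of the latter lay above the WT median of 15.3 CPM.

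The silent subunits form no channel alone but change the gating of others. Of 5 tested, Kcnf1 and Kcnv1 were called, where 4.33% of all tested genes were called higher. Kcnf1 ran from 14.8 to 25.5 CPM (median 16.3) in WT and from 16.2 to 32.5 CPM (median 25.6) in KI libraries, with a log2 fold change of 0.55 ± 0.13. Kcnv1 rose by 0.88 ± 0.29 at a far lower level, at most 26 counts per library, and was called in 9 of those 16 settings. Its call was lost, at 0.72 to 0.89, without WT female replicate 1 or 3, WT male replicate 2, KI female replicate 3 or 4, or KI male replicate 1 or 4. Kcns2 had a log2 fold change of 0.69 ± 0.26 and did not pass (edgeR FDR = 0.102).

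Inward rectifiers pass current more easily into the cell than out of it. Of 10 tested, Kcnj3 and Kcnj6 were called, where 4.33% of all tested genes were called higher. Both are opened by G proteins downstream of inhibitory receptors. Kcnj6 ran from 4.61 to 10.7 CPM (median 8.78) in WT and from 8.48 to 17.2 CPM (median 13.6) in KI libraries. The log2 fold change was 0.71 ± 0.17 for Kcnj6 and 0.54 ± 0.14 for Kcnj3. Kcnj9, the third G protein-gated subunit tested, had 0.37 ± 0.13 with an FDR of 0.073 (edgeR), below the fold threshold. The glial rectifiers Kcnj10 and Kcnj16, which buffer potassium, had log2 fold changes of -0.25 ± 0.11 and -0.19 ± 0.15, and neither passed.

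The tandem pore domain channels carry background current at rest. Of 8 tested, Kcnk9 and Kcnk10 were called, where 4.33% of all tested genes were called higher. Both were of low level in WT at 0.51 and 0.43 RPKM. Kcnk9 ran from 3.54 to 10.6 CPM (median 6.95) in WT and from 7.56 to 18.4 CPM (median 13.2) in KI libraries. All 8 of the latter lay above the WT median. The log2 fold change of 0.89 ± 0.23 was the highest of the members, and Kcnk10 rose by 0.66 ± 0.20. Kcnk6 and Kcnk13, described above, belong to the same class, whose fold changes thus ranged from -0.32 in Kcnk2 to 0.89.

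No calcium-activated gene of 5, no sodium-activated gene of 2 and no auxiliary subunit of 9 was called. Of all tested genes 4.33% were called higher and 4.3% lower, so 0 calls in classes this small lies near those shares. Kcnma1, the large-conductance calcium-activated channel, ran from 50.5 to 73.1 CPM (median 62.6) in WT and from 57.8 to 94.1 CPM (median 80.5) in KI libraries. The log2 fold change of 0.36 ± 0.10 had an FDR of 0.0231 (edgeR), below the fold threshold. Kcnab3, a beta subunit, had 0.45 ± 0.13 with an FDR of 0.0331 (edgeR). The auxiliary subunits had a median of 0.35, with 8 of 9 above 0, while Kcnip3, the one nearest to 5 RPKM, stood at 0.0047 ± 0.0716.

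The noncoding RNA Kcnq1ot1 (chromosome 7, 142731402 to 142850327) is transcribed antisense within Kcnq1 and is known for silencing its neighbours on the paternal chromosome. It ran from 54.9 to 126.2 CPM (median 99.1) in WT and from 91.8 to 210.6 CPM (median 151.9) in KI libraries, and 7 of the 8 latter lay above the WT median. The log2 fold change was 0.72 ± 0.17 (edgeR FDR = 0.0102). Kcnq1 itself, on the other strand, had too few counts to be tested, at most 6 in any library. The column of the aligner's counts that was used, and so its strand setting, is not given in the sources used here. The same holds for Kcnh7, whose span overlaps Gca on the other strand.

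The called genes differed widely in span from first to last exon, from 4789 bases in Kcnf1 to 563540 in Kcnq5. Their median was 162357 bases, against 34243.5 for the members not called and 27867 for all tested protein-coding genes, a difference that was not tested. Of the 17, 14 were longer than that last value, while Kcna1, Kcna4 and Kcnf1 were shorter. Within 4 of them (Kcnb2, Kcnq5, Kcnd2 and Kcnk10), 7 short unconfirmed transcripts annotated on the same strand were tested. All 7 had a fold change above 0 and 6 were called higher, with a median log2 fold change of 1.18, while 21.0% of the 1151 unconfirmed transcripts tested anywhere were called higher, with a median of 0.33. One of them, Gm42583 inside Kcnd2, ran from 3.58 to 18.1 CPM in WT and from 9.23 to 32.8 CPM in KI libraries. Kcnd3os, an antisense transcript of Kcnd3 that the naming rule left out, was also called higher, with a log2 fold change of 1.05 ± 0.31 (edgeR FDR = 0.0409).

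Within each sex the genotypes were compared by a fit of the 4 groups. In females 15 members were called higher, where 2.82% of all tested genes were, and 1 lower, where 4.33% were. In males no member was called by edgeR, where 0.252% of all tested genes were called in either direction. At an unadjusted p below 0.05, 11 members (16.2%) differed in males by edgeR, where 11.7% of all tested genes did, 16 by limma voom and 13 by DESeq2, which called 1. Of the 11 by edgeR, 10 were higher in KI libraries. Among all 18227 tested genes, 1024 were higher in KI males than in WT males at such a p. The medians of the members were 0.48 in females and 0.30 in males, with 54 and 55 of 68 above 0. No member was called for a difference between the sexes in genotype effect by edgeR, limma voom or DESeq2, where 0.0274% of all tested genes were by edgeR; 3 (4.41%) had an unadjusted p below 0.05 by each of the 3 tools, where 5.94% of all tested genes did by edgeR. The number of calls in females, 16 in all, was 1 once WT replicate 1 of that sex was dropped, 2 once WT replicate 2 or KI replicate 3 was, 6 once KI replicate 4 was and 9 once WT replicate 3 was, whereas dropping WT replicate 4 gave 33. In males 5 members were called once KI male replicate 3 was left out. The share of all tested genes called with a library left out was not counted.

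Kcnj10 was the member lower in females. In WT females it lay at 51.4 to 79.8 CPM (median 61.0), above WT males at 38.5 to 48.5 CPM, KI females at 37.4 to 52.0 CPM and KI males at 40.5 to 51.2 CPM. WT females overlapped KI females only narrowly and WT males not at all. The log2 fold change was -0.52 in females (edgeR FDR = 0.0291) and 0.02 in males, and the difference between them had an unadjusted p of 0.0118. Without single female libraries it ran from -0.59 to -0.38, and the call was lost in 4 of 8 cases: when WT female replicate 1 or 2, or KI female replicate 3 or 4, was left out. The 10 astrocyte marker genes summed to 629.4 to 1202 CPM in WT females, 586.4 to 677.3 CPM in WT males, 498.0 to 795.8 CPM in KI females and 527.2 to 810.2 CPM in KI males. Their median log2 fold change was -0.58 in females, with 0 of 10 above 0, and 0.15 in males, with 7 of 10 above 0. For the difference between the sexes, 6 of the 10 had an unadjusted p below 0.05 by edgeR. The part of astrocyte RNA in the Kcnj10 result was not tested. No member was called between the sexes themselves by edgeR, limma voom or DESeq2, where 0.0604% of all tested genes were by edgeR; at an unadjusted p below 0.05 there were 2 (2.94%) by edgeR, where 6.56% of all tested genes had one, 2 by limma voom and 3 by DESeq2.

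**Figure D4:**
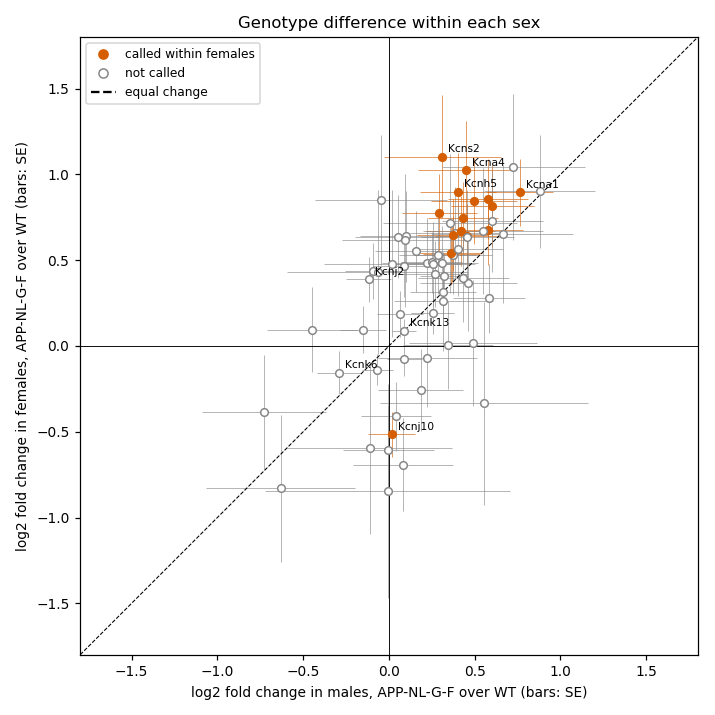
Log2 fold change of KI over WT in females (y axis) against that in males (x axis) for the 68 channel genes, with bars of 1 standard error (n = 4 libraries per group), filled orange points for genes called within females and a dashed line of equal change. Most points lie at the upper right, and Kcnj10 lies at -0.52 in females and 0.02 in males.

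Of the 14 neuron markers 6 were higher in KI libraries by the FDR, where 6.95% of all tested genes were. None was past the fold threshold, and the median log2 fold change was 0.26. The members were therefore also tested against a neuron score, the mean log2 CPM of the 14 neuron markers in each library, in a fit that kept genotype and sex. The score ran from 3.92 to 4.23 in WT and from 4.04 to 4.53 in KI libraries, 5 of which exceeded every WT library. The fitted term was positive for 57 of the 68 members, and 8 passed the FDR threshold with a positive term, where 3.58% of all tested genes did, and 0 with a negative one, where 1.91% did. Among the 8 were Kcnd2, Kcnj3, Kcnq1ot1, Kcnj4, Kcnab3, Kcnma1 and Kcna4. Kcnj3 gained 1.75 ± 0.40 and Kcnd2 1.78 ± 0.41 on the log2 scale per unit of the score. Of the 5 high-level members 1 had an unadjusted p below 0.05, Kcnk6 with -0.74 ± 0.31 (edgeR FDR = 0.173), and Kcnk13 stood at -0.01 ± 0.19. A negative term at such a p was found for 1120 of the 5077 tested genes at or above 5 RPKM. The 1 member lies near that share. The count of 8 was not stable, being 0 without WT male replicate 2, WT male replicate 3, KI female replicate 3 or KI male replicate 3 and 25 without WT male replicate 1 or KI female replicate 4. It was 21 without KI female replicate 2, 17 and 15 without WT female replicates 4 and 1, and 13 without KI male replicate 4.

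With the neuron score in the model, 1 member remained called for genotype, Kcna1 at 0.64 ± 0.16 (edgeR FDR = 0.0621), where 0.192% of all tested genes were called higher. The fold changes of the other 16 ran from 0.12 in Kcnd2 to 0.56 in Kcnk9. The median of the low-level members went from 0.38 to 0.14. Kcnk13 kept its value, at 0.09 ± 0.06, and Kcnk6 went from -0.22 to -0.08. Score and genotype overlap in part, so this fit also takes up some of the genotype difference.

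**Figure D5:**
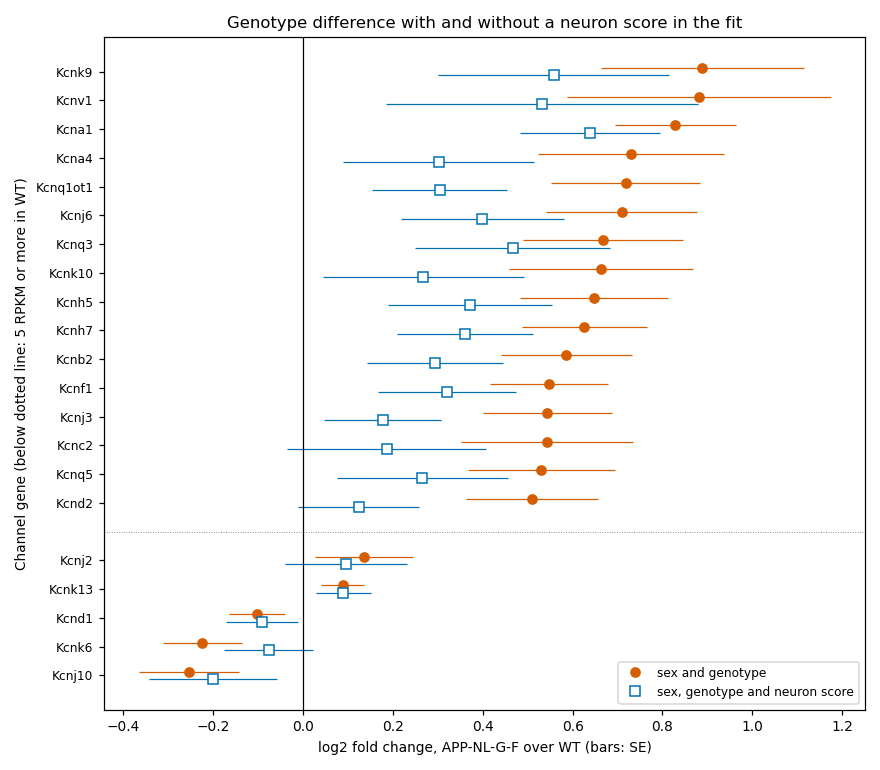
Log2 fold change of KI over WT (x axis, bars are standard errors, 16 libraries) for 16 of the 17 called genes and, under the dotted line, the 5 genes at or above 5 RPKM, in the fit with sex and genotype (orange circles) and with the neuron score added (blue squares). Every called gene shown moved towards 0 with the score, the median of all low-level members going from 0.38 to 0.14, and Kcna1 alone stayed called.

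The markers of other cells moved in different ways beside these results. The 12 markers of olfactory bulb inhibitory neurons, the most numerous neurons there, summed to 223.7 to 366.9 CPM in WT and 300.6 to 495.7 CPM in KI libraries. Of these 12, 2 were called higher, where 4.33% of all tested genes were, with a median log2 fold change of 0.38. The 7 markers of projection neurons summed to 43.8 to 197.0 CPM in WT and 76.7 to 175.3 CPM in KI libraries, with a median of -0.06 and none called. That median joins 0.45 in females, with 6 of 7 above 0, and -0.42 in males, with 2 of 7 above 0: the sums ran from 43.8 to 194.2 CPM in WT females, 144.5 to 197.0 CPM in WT males, 113.1 to 175.3 CPM in KI females and 76.7 to 133.8 CPM in KI males. The 8 oligodendrocyte markers had a median of 0.38 with 1 called higher, beside the same 4.33% of all tested genes. Endothelial and pericyte markers also went opposite ways in the sexes. The 10 endothelial markers, none called over both sexes, summed to 103.9 to 233.6 CPM in WT females, 70.1 to 83.5 CPM in WT males, 91.3 to 112.6 CPM in KI females and 89.7 to 124.8 CPM in KI males. WT females thus lay above WT males and overlapped both KI groups. Their median log2 fold change was -1.02 in females and 0.69 in males, and 8 of 10 had an unadjusted p below 0.05 for the difference between the sexes. The 7 tested pericyte and fibroblast markers had medians of -0.53 and 0.36, with 4 of 7 at such a p, beside channel medians of 0.48 in females and 0.30 in males. The part of these cells in the channel differences was not tested beyond the fits with a neuron score.

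Other genes of potassium handling were read from lists of partners, pumps and purine genes. Among partners of channels, the scaffolds, accessory proteins and related channels, 19 of 21 listed were tested, 4 were called higher, where 4.33% of all tested genes were, and 0 lower, with a median log2 fold change of 0.32. Among the 4 were Ank3, which anchors channels at the start of the axon, at 0.56 ± 0.15, Dpp10, a partner of Kcnd2, at 0.60 ± 0.17, and the secreted synaptic protein Lgi1 at 0.84 ± 0.22. Ank3 ran from 87.7 to 173.6 CPM in WT and from 121.8 to 239.8 CPM in KI libraries, an overlapping range. Of 15 pumps and cotransporters listed, 14 were tested and none was called, with a median of 0.03.

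Purine receptors and inflammasome genes, which act upstream and downstream of potassium efflux in microglia, were another list. Of 12 tested 1 was called lower, where 4.3% of all tested genes were, and 0 higher, with a median of -0.10. With 12 genes, 1 call lies near that share. By the FDR alone 5 of the 12 were lower and 0 higher, where 1426 of the 18227 tested genes were lower. Nlrp3, the sensor that responds to potassium efflux, ran from 108.9 to 227.0 CPM (median 147.5) in WT and from 57.9 to 134.0 CPM (median 97.4) in KI libraries, with a log2 fold change of -0.67 ± 0.15 (edgeR FDR = 0.00839). P2rx4 and P2rx7, channels opened by ATP, had -0.25 ± 0.07 and -0.11 ± 0.04. Gsdmd, which forms pores at the end of the pathway, had -0.23 ± 0.06, and Casp1 had -0.27 ± 0.09. These 4 passed the FDR by edgeR (0.0390, 0.0920, 0.0263 and 0.0768) but lay below the fold threshold. P2ry12, the receptor that couples to Kcnk13, had 0.07 ± 0.06 and was not called.

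The 27 channel genes below the count filter stayed low in both genotypes. Kcne2 and Kcnv2 had no count in any library, and the highest count of any of the 27 was 16, for Kcnj8, a channel known from pericytes, at 0.486 CPM on average in WT and 0.434 CPM in KI libraries. Where a library shows 0, as many as 3 counts are still possible, or 0.166 to 0.331 CPM by library.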

How the data were processed

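KI stands for APP-NL-G-F. Microglia enriched with CD11b beads from olfactory bulbs were sequenced in 16 libraries made with a stranded total RNA kit. The authors mapped read pairs with STAR against GRCm39, extended by human App sequence and annotated by gencode vM32, and deposited raw counts per gene as 1 table with 1 column per library; the counts are whole numbers and were not normalized. Library totals of 9052932 to 18117286 counts set the precision, which is poor for genes of few counts, and intervals and floors cover counting error only. Groups and replicate numbers came from the sample titles.

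Here a gene needed 5 counts or more in 8 or more libraries, and the genes kept held 99.86% of all counts. Library sizes were scaled by TMM and genes tested with edgeR 4.0.16 in R 4.3.3 (glmQLFit, glmQLFTest) with sex and genotype as additive terms, with Benjamini-Hochberg adjustment over all tested genes. A fit of the 4 groups gave the contrasts within sexes and their difference. Each standard error is the size of the log2 fold change over the root of its F statistic. Genes were called where the FDR was under 0.1 and the log2 fold change past 0.5 in either direction. Exon lengths, positions and coding sequences came from gencode vM39 on GRCm39, a later release than the authors used, which matched 98.0% of tested genes; log2 CPM values carried a prior count of 2. Alternatives were other normalizations, DESeq2 1.42.0, limma voom (limma 3.58.1), other filters, call rules, level splits and scores, a replicate block, and leaving out each library. Replicate numbers were not treated as pairs within a sex. The deviations of same-numbered libraries correlated between -0.33 and 0.13, with 2 of 8 pairs over 0.1. The genotype test was tried on simulated data whose planted changes were all larger than those of the called members, so changes of their size were not covered.

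The members, the gene lists and the named genes were chosen with earlier results of these data known. Named are all called members, the 12 of highest WT level, the 6 known microglial channels, those next to the level split, those called for sex or the difference between sexes, the 3 of smallest p on either side of the neuron score term, and Kcnq1ot1; members named beyond these were chosen after their values were seen. Some genes that this rule names, and 1 sequence, are not reported here.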

Additional observations from a re-analysis of the deposited data

Results flagged for a closer look

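In 7 of 128 groups of 4 libraries, over the 31 named channels and the neuron score, 1 library lay apart from the other 3 by Dixon's criterion, where chance gives about 6.4. WT male replicate 2 was the lowest of its group for Kcna1 (3.43 CPM against 5.14 to 5.49, ratio of gap to range 0.8291), Kcna4 (7.71 CPM against 13.8 to 14.9, ratio 0.848) and Kcnh5 (7.20 CPM against 11.6 to 12.1, ratio 0.890). The same library had the lowest neuron marker sum of all 16, 400.1 CPM, and the highest total, 18117286 counts. WT male replicate 3 was the highest of its group for Kcnj2 (53.8 CPM against 35.9 to 37.3, ratio 0.917) and Kcnip3 (22.0 CPM against 16.9 to 17.7, ratio 0.832). KI female replicate 1 was the highest for Kcnd1 (36.5 CPM against 29.7 to 30.6, ratio 0.867), and WT female replicate 4 for Kcnq5 (5.64 CPM against 4.43 to 4.62, ratio 0.837).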

How the results depend on the processing

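Calls for genotype numbered 14 to 23 members, all higher except 1 of the 19 by limma voom, under other normalizations, tests, filters and call rules and without the sex term. The same range held with the replicate block (16 calls) and with a 2-level term for the earlier against the later libraries in sample order. No source ties that order to preparation. With the neuron score as a covariate 1 was called. That covariate also took the median of the low-level members to 0.14 and turned Kcna5 to -0.065, Kcnip3 to -0.10 and Kcnn4 to 0.10. Within females 29 members were called with no count filter and 6 at an FDR below 0.05; within males 5 with no count filter and 1 by DESeq2; the difference between sexes called 2 with no count filter. The neuron score called 38 members, 37 of them positive, when olfactory bulb inhibitory neuron markers replaced the neuron list, and 19 with the replicate block. The median of the high-level members was 0.36 with the split at 2 RPKM and -0.22 at 10 RPKM. In each of these cases the cause was not tested. Leaving out 1 library gave 10 to 25 calls for genotype (14 of 16 higher without KI female replicate 4 and 17 of 18 without KI male replicate 4), 1 to 33 within females, 0 to 5 within males, 0 for sex and for the difference between sexes, and 0 to 25 for the neuron score; the medians ran from -0.13 to -0.07 for high-level and 0.33 to 0.46 for low-level members, and Kcnip3 from -0.017 to 0.044. No label says whether a replicate number marks a shared litter or day. Among libraries of the other genotype and the same sex, 5 of 16 libraries correlated best with one of their own number. Such correlations cannot show or exclude a shared litter or day.

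Counts of a few per library limit what could be detected in the lowest members: Kcnv1 reached 26 counts and Kcna5 22, and the 27 genes below the filter at most 16.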

Other observations

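Several other channels of mid level had overlapping genotypes and no call. Kcnc1, which lets neurons fire fast, ran from 23.0 to 53.8 CPM in WT and 33.3 to 52.0 CPM in KI libraries, with a log2 fold change of 0.28 ± 0.13. Kcnt1, opened by sodium, ran from 19.8 to 44.3 CPM in WT and 25.4 to 51.5 CPM in KI libraries, with 0.35 ± 0.18. Kcna2, which pairs with Kcna1 along axons, ran from 12.7 to 22.0 CPM in WT and 13.5 to 17.2 CPM in KI libraries, with -0.03 ± 0.10, beside 0.83 ± 0.13 for Kcna1; the difference between these 2 genes was not tested. At the low end of the levels, Kcna7 and Kcnh6 had the lowest fold changes of the members, -0.73 ± 0.30 and -0.54 ± 0.24, and neither passed by edgeR.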
